A study of Mus musculus with 21 samples.

Results

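The opioid and somatostatin receptors are 9 genes for peptide receptors that couple to inhibitory G proteins, and their transcripts were followed in AGRP and POMC neurons of the arcuate nucleus (ARC) of fed and food-deprived (FD) mice. The members were taken by gene symbol: 4 opioid receptor genes (Oprk1, Oprm1, Oprd1 and Oprl1) and 5 somatostatin receptor genes (Sstr1 to Sstr5), out of 35266 genes in the count table. All 9 were present, and all 9 were among the 16513 genes with more than 1 CPM (counts scaled to library size) in at least 3 libraries. Oprd1 met that filter through POMC libraries, so its difference between the cell types is partly built into its inclusion.

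The samples were 21 RNA-Seq libraries, each from the fluorescent neurons of 1 male mouse on a C57BL/6J background, aged postnatal day 46 to 56. AGRP neurons came from NPY-hrGFP mice (5 fed, 6 FD) and POMC neurons from Pomc-GFP mice (5 fed, 5 FD), so the cell type comparison is also a comparison of 2 reporter lines, and the AGRP reporter is driven by Npy, not by Agrp. Every mouse was moved to a fresh cage 24 hr before the experiment, where FD mice had water alone and fed mice had food at will. From 44 to 214 neurons were picked by hand per mouse, and the libraries held 9822298 to 37663979 gene counts (median 19189780). Body weight fell by 19.4% ± 1.75 (SD, n = 3 with weights) in FD mice of the AGRP group and fell by 17.7% ± 1.64 (SD, n = 5) in those of the POMC group.

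Opioid receptors bind peptides cut from the precursors proenkephalin, prodynorphin, proopiomelanocortin and pronociceptin, and somatostatin receptors bind somatostatin and cortistatin. When they are occupied, the Gi and Go proteins they couple to lower cAMP, open GIRK potassium channels and close presynaptic calcium channels, so that the neuron fires less and releases less transmitter. AGRP neurons promote feeding and POMC neurons restrain it, and both lie close to terminals that release opioid peptides and somatostatin in the ARC.

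The 9 genes are related in sequence, which matters for whether reads can be told apart. The stretches of coding sequence below are those where the 4 opioid receptor genes are most alike, and they show how far these genes still differ there. Each is a 60-base window of the GENCODE M21 coding sequence, 5′ to 3′, with capitals at the positions that are identical in all 4 genes. In this window 43 of the 60 bases were identical.
Oprk1: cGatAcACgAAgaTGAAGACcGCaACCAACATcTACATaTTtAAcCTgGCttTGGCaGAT
Oprm1: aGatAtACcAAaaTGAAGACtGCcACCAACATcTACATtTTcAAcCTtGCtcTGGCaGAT
Oprd1: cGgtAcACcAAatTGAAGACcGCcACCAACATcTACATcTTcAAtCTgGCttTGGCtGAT
Oprl1: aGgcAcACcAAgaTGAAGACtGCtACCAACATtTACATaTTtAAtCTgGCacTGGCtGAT

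Over whole coding sequences the opioid receptor genes were 58.8% (Oprm1 and Oprl1) to 65.5% (Oprm1 and Oprd1) identical, and the somatostatin receptor genes 55.3% (Sstr3 and Sstr4) to 67.0% (Sstr3 and Sstr5). The longest run shared by any pair was 41 bases, between Sstr3 and Sstr5. No stretch of 100 bases in the transcripts of any of the 9 genes occurred in a transcript of another gene, so full-length reads of that size name 1 receptor. Counting took no account of strand, and Oprm1 shares 96 exon bases with Ipcef1 on the opposite strand, so reads lying wholly in those bases cannot be assigned to either gene. No other receptor gene shared exon bases with a neighbour in that annotation.

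The sorted neurons carried the transcripts their labels name. Summed Agrp and Npy ranged from 12064 to 68921 TPM (reads per exon length, scaled to the same total in each library) in AGRP libraries and from 5.45 to 226 TPM in POMC libraries, while Pomc ranged from 7162 to 23063 TPM in POMC libraries and from 7.35 to 69.7 TPM in AGRP libraries. Mean Cartpt, the other POMC marker listed, was 7639 TPM in fed and 2743 TPM in FD POMC neurons. In AGRP neurons it was 123 TPM fed and 136 TPM FD. The 7 markers of other arcuate neurons, Sst and Gal among them, summed to medians of 1297 TPM in fed and 1130 TPM in FD AGRP libraries. In POMC libraries the medians were 138 TPM fed and 69.9 TPM FD. Whether other neurons were carried along was not tested. Summed over 16 markers of astrocytes, oligodendrocytes, microglia and endothelial cells, non-neuronal transcripts were 25.5 to 55.8 TPM over all libraries, with 10 to 12 of the 16 markers under 1 TPM on average and 2 at 0 in all libraries of a group. Oligodendrocyte markers made up most of this sum, at 16.0 to 31.9 TPM in fed and 22.0 to 47.8 TPM in FD POMC libraries, and their part in the results below was not tested. As these are pooled cells, fewer receptor-bearing cells and less RNA per cell cannot be told apart in any of the differences that follow.

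Oprl1, the receptor for nociceptin, had the highest mean TPM of the 9 receptor transcripts in all 4 groups. Its mean was 88.8 ± 20.8 TPM (SD, n = 5) in fed AGRP neurons, 43.4 ± 14.5 TPM (n = 6) in FD AGRP neurons, 63.2 ± 18.9 TPM (n = 5) in fed POMC neurons and 89.1 ± 15.3 TPM (n = 5) in FD POMC neurons. Among opioid receptors it led in every AGRP library and in 4 of 5 fed and 4 of 5 FD POMC libraries. This order depends on the division by exon length. In mean CPM, Oprm1 was above Oprl1 in fed POMC neurons (98.4 and 69.7), and so was Oprk1 in FD POMC neurons (116 and 89.0). In fed AGRP neurons the order of mean TPM was Oprl1, Oprm1, Sstr4, Sstr2, Oprk1, Sstr1, Sstr3, Sstr5 and Oprd1, and of these neighbours only Oprl1 and Oprm1, and Oprm1 and Sstr4, had ranges that did not overlap. In fed POMC neurons the order was Oprl1, Oprm1, Sstr1, Oprk1, Sstr4, Oprd1, Sstr3, Sstr2 and Sstr5, and only Oprm1 and Sstr1 were separated among neighbours. After deprivation Sstr4 moved to the second place in AGRP neurons and Oprk1 to the second place in POMC neurons, each with a range that overlapped that of Oprl1. A mean over 20 TPM in at least 1 group was reached by 5 receptors, Oprk1, Oprm1, Oprl1, Sstr1 and Sstr4.

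**Figure D1:**
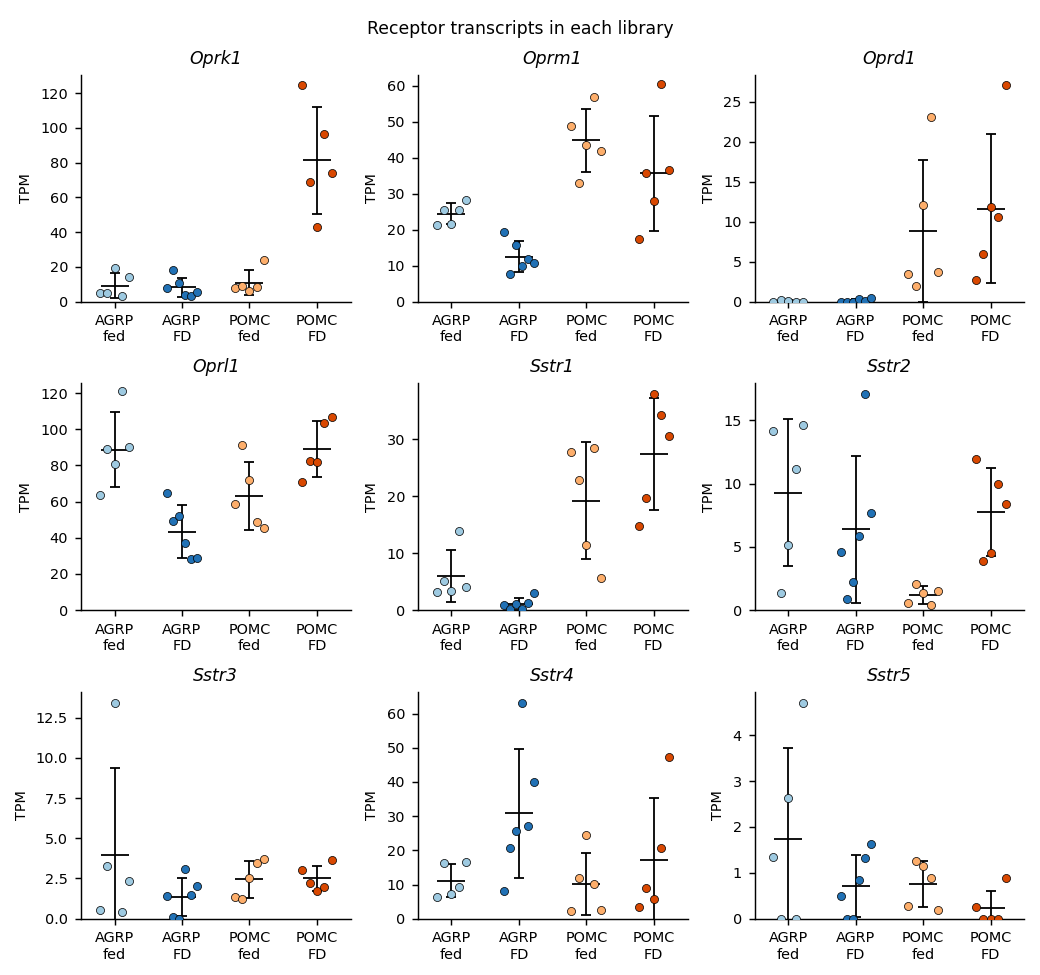
TPM of each receptor gene (vertical axis, linear, from 0, scaled by panel) in the 4 groups (horizontal axis). Each point is 1 mouse, the long dash is the group mean and the bars are ± SD, shown down to 0. The 5 FD POMC libraries sit above all other libraries for Oprk1 (42.7 to 125 TPM), and Oprd1 is near 0 in all 11 AGRP libraries.

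Oprk1, the gene of the kappa opioid receptor for dynorphins (ENSMUSG00000025905, chr1:5588493-5606131, plus strand, mm10), was the receptor that rose with food deprivation in POMC neurons. It stood at 7.56, 9.11, 6.26, 8.30 and 23.7 TPM in the 5 fed POMC libraries and at 125, 68.8, 42.7, 96.8 and 74.2 TPM in the 5 FD POMC libraries. The groups did not overlap, and the lowest FD library lay above the highest fed library. Oprk1 rose by 2.80 ± 0.50 on the log2 scale (6.96-fold, adjusted p = 0.0034 by edgeR's quasi-likelihood test), with the 5 FD libraries all higher. In POMC neurons 1 of the 9 receptors passed an adjusted p of 0.05, against 0.375% of all genes tested (0.182% higher, 0.194% lower), and 2 of the 9 did not overlap between fed and FD, against 2.39% of all genes.

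In AGRP neurons Oprk1 showed no such difference. It was measured at 4.97, 4.68, 19.4, 3.19 and 13.9 TPM in the fed libraries and at 3.26 to 18.0 TPM (median 6.47) in the 6 FD libraries. The 2 groups covered nearly the same range, and the fitted change was 0.09 ± 0.45 on the log2 scale (95% interval −0.79 to 0.97, adjusted p = 0.94). The change in AGRP neurons was smaller than that in POMC neurons by 2.71 ± 0.65 log2 units (95% interval of AGRP less POMC −3.98 to −1.43, adjusted p = 0.010 for the interaction, edgeR).

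The rise of Oprk1 in POMC neurons kept an adjusted p between 0.0015 and 0.018 when each of the 10 libraries was left out in turn. Within the 6 POMC libraries that had received 1 µl of spike-in, the difference of log2 CPM was 2.72 (3 FD, 3 fed), and within the 8 mice aged 54 days or more it was 2.81 (5 FD, 3 fed), against 2.86 for all 10. The other POMC spike-in sets held mice of 1 feeding group only and give no value. In AGRP neurons the Oprk1 difference within sets was 0.98 where spike-in volume followed cell number (3 FD, 2 fed, overlapping). It was −0.30 at 1 µl (1 and 1) and −0.77 at 10 µl (2 and 2, overlapping), against 0.16 pooled. When libraries were scaled by spike-in counts per sorted cell, the median of all genes in POMC neurons shifted by −1.11, Oprk1 stood at 1.60 (adjusted p = 0.36), and its difference from that median was 2.71.

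In fed mice Oprk1 did not differ detectably between the cell types (AGRP less POMC −0.42 ± 0.47 on the log2 scale, adjusted p = 0.72). The difference of log2 CPM varied with the mice compared, and was −0.59 pooled. At 54 days or more it was −1.20 (2 AGRP, 3 POMC, no overlap), and at 51 days 0.85 (1 and 2). By spike-in set it was −0.66 where volume followed cell number (2 and 2, overlapping) and −1.24 at 1 µl (1 and 3). In FD mice Oprk1 was lower in AGRP neurons by 3.12 ± 0.47 log2 units (8.71-fold, adjusted p = 9.1e-06), with no overlap between 6 AGRP and 5 POMC libraries.

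Oprm1, the gene of the mu opioid receptor for endorphin and enkephalins (ENSMUSG00000000766, chr10:6758506-7038198, plus strand), was lower in AGRP than in POMC neurons under both feeding conditions. Fed AGRP libraries held 21.3, 25.4, 21.7, 25.5 and 28.3 TPM, and fed POMC libraries held 48.7, 33.0, 43.6, 56.8 and 41.8 TPM. Every fed POMC library was above every fed AGRP library. The difference was −1.06 ± 0.26 on the log2 scale in fed mice (2.08-fold lower in AGRP neurons, adjusted p = 0.0085) and −1.34 ± 0.25 in FD mice (2.54-fold lower, adjusted p = 0.00019). FD libraries overlapped, with 7.59 to 19.3 TPM (median 11.3) in AGRP neurons and 17.5, 35.7, 27.9, 60.4 and 36.6 TPM in POMC neurons. With spike-in scaling the FD difference turned to 0.16 (adjusted p = 0.90), where the median of all genes shifted by 1.10, and relative to that median it was −0.94.

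Within AGRP neurons all 6 FD libraries were below all 5 fed libraries for Oprm1, but the change of −0.75 ± 0.25 narrowly missed the threshold (adjusted p = 0.052, unadjusted p = 0.0055). It passed in 4 of 10 alternative analyses, among them DESeq2 (adjusted p = 0.023) and the age cohort as a block (adjusted p = 0.049), and when FD replicate 1 or FD replicate 3 was left out (adjusted p = 0.027 and 0.045). In POMC neurons the change was −0.46 ± 0.26 (95% interval −0.97 to 0.05, adjusted p = 0.50). The response of AGRP neurons less that of POMC neurons was −0.29 ± 0.36 (95% interval −0.99 to 0.42, adjusted p = 0.73).

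Oprd1, the gene of the delta opioid receptor for enkephalins (ENSMUSG00000050511, chr4:132110726-132144486, minus strand), was close to undetected in AGRP neurons and present in POMC neurons. Across the 11 AGRP libraries it had 0 to 15 counts, with 6 libraries at 0 and none above 0.466 TPM. The 5 fed POMC libraries held 3.43, 1.93, 12.0, 23.1 and 3.65 TPM and the 5 FD POMC libraries 2.67, 6.00, 11.9, 10.6 and 27.0 TPM, with 61 to 535 counts. No AGRP library reached the lowest POMC library. The fitted differences were −7.28 ± 1.26 in fed mice (adjusted p = 0.00016) and −6.18 ± 1.08 in FD mice (adjusted p = 7.9e-05). As the AGRP values rest on a few counts, the size of the fold depends on how near-zero counts are fitted, while the direction was called in all 10 alternatives of each comparison. POMC libraries differed widely among themselves, and deprivation made no detectable difference there (0.34 ± 0.91, 95% interval −1.45 to 2.12, adjusted p = 0.93).

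Oprl1, the gene of the nociceptin receptor (ENSMUSG00000027584, chr2:181715016-181720985, plus strand), fell in AGRP neurons with deprivation. The fed AGRP libraries held 63.5, 88.8, 80.7, 121 and 90.0 TPM, and the 6 FD libraries ranged from 28.2 to 64.9 TPM (median 43.1). The groups overlapped through 1 library on each side, fed replicate 1 at 63.5 TPM and FD replicate 1 at 64.9 TPM. The change was −0.79 ± 0.24 on the log2 scale (1.73-fold lower in FD, adjusted p = 0.030). In AGRP neurons 2 of the 9 receptors, Oprl1 and Sstr1, passed the threshold, both lower in FD, against 10.3% of all genes tested (4.43% lower). In TPM 2 of 9 did not overlap, Oprm1 (not called) and Sstr1, against 7.97%. None was called higher by edgeR, limma-voom or DESeq2, and at an unadjusted p under 0.05 (22.3% of all genes) Sstr4 was the 1 receptor with a higher level.

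The call for Oprl1 in AGRP neurons was close to the threshold. Leaving out fed replicate 2, 4 or 5 or FD replicate 4, 5 or 6 raised its adjusted p to between 0.050 and 0.11, with changes of −0.67 to −0.79. Within the 3 spike-in sets the difference of log2 CPM was −0.70 (3 FD, 2 fed), −0.87 (1 and 1) and −1.10 (2 and 2), against −0.82 pooled. The groups did not overlap in the first and last sets, while pooled they did. In the set of 1 against 1 they cannot overlap. FD replicate 2 fits 2 of the sets by its label (50 cells, 1 µl) and was placed in the one whose spike-in volume followed cell number, here and for the other genes.

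In POMC neurons Oprl1 was at 58.9, 91.3, 72.1, 48.5 and 45.2 TPM in fed mice and at 70.8, 82.5, 82.1, 103 and 107 TPM in FD mice. These ranges overlapped, and the change was 0.35 ± 0.25 (95% interval −0.14 to 0.84, adjusted p = 0.62). The interaction was −1.15 ± 0.35 (adjusted p = 0.042), and it passed with 7 of 21 single libraries left out, with adjusted p between 0.016 and 0.096 over all 21. In FD mice Oprl1 was lower in AGRP than in POMC neurons by 0.86 ± 0.24 log2 units (1.82-fold, adjusted p = 0.010), with no overlap, whereas in fed mice the difference was 0.29 ± 0.25 (adjusted p = 0.61). With spike-in scaling both turned positive, the interaction to 0.29 (adjusted p = 0.91) and the FD difference to 0.58 (adjusted p = 0.61), while relative to the shifted median of all genes they were −0.75 and −0.52.

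Sstr1, a somatostatin receptor gene (ENSMUSG00000035431, chr12:58211772-58214444, plus strand), was lower in FD than in fed AGRP neurons. Fed AGRP libraries held 3.21, 5.19, 3.40, 14.0 and 4.01 TPM, and FD libraries 0.154 to 2.98 TPM (median 1.06). All 6 FD libraries lay below all 5 fed libraries in TPM, while on the log2 CPM scale the groups overlapped, with a difference of −2.24. Within the 3 spike-in sets that difference was −3.13 (3 FD, 2 fed), −1.05 (1 and 1) and −1.78 (2 and 2). The first and last sets were without overlap, and a set of 1 against 1 cannot overlap. The change was −2.26 ± 0.63 on the log2 scale (4.78-fold lower, adjusted p = 0.019). Without fed replicate 4, the library at 14.0 TPM, it was −1.69 (adjusted p = 0.11), limma-voom gave −2.56 (adjusted p = 0.087), and the fit of the AGRP groups alone −2.24 (adjusted p = 0.14).

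Sstr1 was higher in POMC neurons, where it was the leading somatostatin receptor transcript in 4 of 5 fed and 4 of 5 FD libraries. Fed POMC libraries held 27.8, 22.9, 11.4, 28.5 and 5.57 TPM and FD POMC libraries 14.8, 19.6, 38.0, 34.3 and 30.5 TPM. The fed and FD ranges overlapped (0.34 ± 0.63, 95% interval −0.88 to 1.57, adjusted p = 0.90). In FD mice Sstr1 was 23.0-fold lower in AGRP than in POMC neurons (−4.52 ± 0.68 on the log2 scale, adjusted p = 9.2e-06, no overlap). In fed mice the difference of −1.92 ± 0.65 missed the threshold (adjusted p = 0.069), and the interaction did too (−2.60 ± 0.89, adjusted p = 0.075). The fed difference passed without AGRP fed replicate 4 (−2.49, adjusted p = 0.027) or POMC fed replicate 5 (−2.17, adjusted p = 0.038), and the interaction without AGRP FD replicate 6 (−3.16, adjusted p = 0.025).

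Sstr2, a further somatostatin receptor gene (ENSMUSG00000047904, chr11:113619342-113626028, plus strand), was lowest in fed POMC neurons. Its fed POMC values were 0.554, 2.06, 1.34, 0.405 and 1.53 TPM, and its FD POMC values were 12.0, 3.85, 4.55, 9.94 and 8.36 TPM. The 2 groups did not overlap. The fitted change of 2.58 ± 0.82 did not pass after adjustment (adjusted p = 0.15, unadjusted p = 0.0036), nor did it in any of the 10 analyses with a library left out, while DESeq2 gave an adjusted p of 0.021. Thus 0 of 5 somatostatin receptor genes were called in POMC neurons with deprivation by edgeR and limma-voom, and 1 by DESeq2. Over all genes edgeR called 62, limma-voom 73 and DESeq2 382. By edgeR 1 of the 5 was past an unadjusted p of 0.05 (12.2% of all genes).

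In fed mice Sstr2 was higher in AGRP neurons, at 14.1, 1.34, 5.17, 11.1 and 14.6 TPM, than in POMC neurons. One AGRP library, fed replicate 2, lay within the POMC range. The difference was 2.75 ± 0.82 (6.73-fold, adjusted p = 0.034). It lost the threshold without AGRP fed replicate 1, 4 or 5 or POMC fed replicate 1, 3, 4 or 5 (adjusted p 0.055 to 0.089), and it passed in 3 of 10 alternatives. In FD mice, with AGRP values of 0.882 to 17.1 TPM (median 5.22), the difference was −0.10 ± 0.73 (adjusted p = 0.95). The change of Sstr2 with deprivation in AGRP neurons was −0.28 ± 0.73 (95% interval −1.71 to 1.16, adjusted p = 0.88). Within spike-in sets the difference of log2 CPM went both ways. It was −2.30 where volume followed cell number (3 FD, 2 fed) and 0.57 at 1 µl (1 and 1). At 10 µl it was 1.54 (2 and 2), against −0.40 pooled. The first and last sets were without overlap.

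Sstr4, a somatostatin receptor gene with a single exon block (ENSMUSG00000037014, chr2:148395344-148396767, plus strand), led the somatostatin receptors in all 6 FD AGRP libraries. It ranged from 8.16 to 63.2 TPM there (median 26.4), and the fed AGRP libraries held 6.26, 16.3, 7.32, 9.38 and 16.5 TPM. FD replicate 1 was the single FD library inside the fed range. The change of 1.75 ± 0.70 did not pass (95% interval 0.39 to 3.11, adjusted p = 0.12, unadjusted p = 0.018), and it passed in 1 of 10 alternatives, the fit of the 2 AGRP groups alone (adjusted p = 0.041). Within the set of mice whose spike-in was given by cell number the difference was 0.60 (3 FD, 2 fed), against 2.36 (1 and 1) and 2.44 (2 and 2) in the other sets and 1.55 pooled. In POMC neurons the values overlapped, at 2.19 to 24.5 TPM in fed and 3.33 to 47.2 TPM in FD libraries.

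Sstr3 (ENSMUSG00000044933, chr15:78537015-78544345, minus strand) and Sstr5 (ENSMUSG00000050824, chr17:25489875-25497288, minus strand) were low in all 4 groups. Sstr3 stood between 0 and 13.4 TPM, with group means of 1.34 to 3.99 TPM, and Sstr5 between 0 and 4.70 TPM, with group means of 0.229 to 1.74 TPM. Sstr5 was listed at 0 in 7 libraries and Sstr3 in 1. No comparison of either gene passed the threshold, and the intervals were wide. For Sstr5 the 95% interval of the change in POMC neurons ran from −5.02 to 1.39 on the log2 scale.

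**Figure D2:**
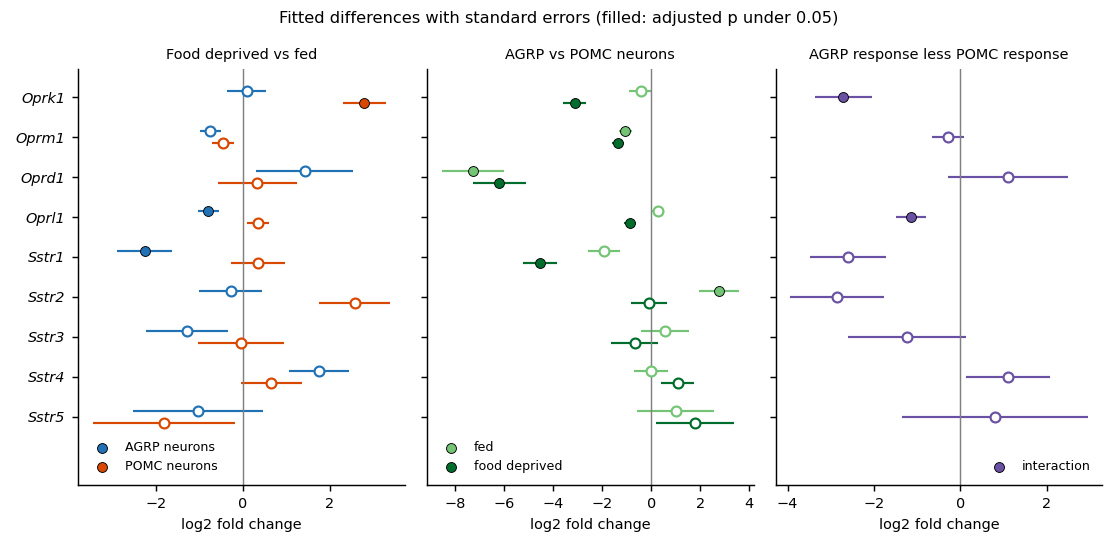
Fitted log2 fold change (horizontal axis) of each receptor gene (rows) for the effect of deprivation in each cell type, AGRP against POMC neurons in each feeding state, and the difference of the responses. Points are estimates, bars are ± 1 standard error, and filled points passed an adjusted p of 0.05. Oprk1 in POMC neurons (2.80) and Sstr1 in AGRP neurons (−2.26) are the filled points farthest from 0 in the left panel, and the only filled points among the interactions are Oprk1 and Oprl1.

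Between the cell types the called receptor genes were mostly lower in AGRP neurons. In fed mice 3 of 9 were called, Sstr2 higher in AGRP neurons and Oprm1 and Oprd1 lower, against 7.57% of all genes tested (3.33% higher, 4.24% lower), and 2 of 9 did not overlap, against 9.05%. In FD mice 5 of 9 were called, all lower in AGRP neurons (the 4 opioid receptor genes and Sstr1), against 18.6% of all genes (9.28% higher, 9.27% lower), and 4 of 9 did not overlap, against 11.8%. Both counts include Oprd1, whose difference is partly built into its inclusion. The fed and FD counts were read side by side and the difference between them was not tested as such. The interaction, which is that test gene by gene, called 2 of 9, Oprk1 and Oprl1, both with the lower change in AGRP neurons, against 6.71% of all genes (4.08% higher, 2.63% lower). By the study's stricter criteria (additionally an absolute log2 change above 1 and 20 CPM on average in some group), 0 of 9 receptors were called for deprivation in AGRP neurons (4.46% of all genes), 1 in POMC neurons (Oprk1, 0.266%), 1 between fed cell types (Oprm1, 4.01%) and 2 between FD cell types (Oprk1 and Oprm1, 8.15%). With spike-in scaling 1 gene was called in fed mice (Oprd1), 2 in FD mice (Oprd1 and Sstr1) and 0 for the interaction. Over all genes that scaling called 297, 1117 and 119 in the same order.

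The median fitted change of the 9 genes in AGRP neurons was −0.75, beside −0.02 over all tested genes, and in POMC neurons it was 0.34, beside −0.02. The AGRP and POMC comparisons with deprivation share no libraries, but each cell type comparison shares its libraries with them, so the 4 sets of values are not independent.

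The make-up of each family shifted with these values. Oprl1 accounted for 72.1% ± 5.80 (SD, n = 5) of the summed opioid receptor TPM in fed AGRP neurons and 67.3% ± 3.36 (n = 6) in FD AGRP neurons, although the sum went from 122 ± 21.8 to 64.2 ± 20.2 TPM. In POMC neurons the sum went from 128 ± 10.5 to 218 ± 41.9 TPM, the share of Oprk1 from 8.91% ± 6.65 to 37.1% ± 12.3, and the share of Oprm1 from 35.2% ± 7.08 to 16.2% ± 5.25. The lowest Oprk1 share in FD POMC libraries, 26.0%, was above the highest in fed ones, 20.7%. For somatostatin receptors, Sstr4 held 35.2% ± 16.5 of the sum in fed and 75.3% ± 17.7 in FD AGRP neurons, and Sstr1 held 55.9% ± 22.5 in fed and 52.4% ± 15.8 in FD POMC neurons. Shares within a library move together by construction and were not tested. TPM has the same total in each library, so the family sums also move with other genes. Median summed Agrp and Npy was 15225 TPM in fed and 45858 TPM in FD AGRP libraries. Mean Pomc was 16029 TPM in fed and 10743 TPM in FD POMC libraries. Gnao1 went from 706 to 560 TPM in AGRP neurons without overlap, though its fitted change was −0.09 ± 0.11 on the log2 scale. The part of this in the sums was not tested.

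**Figure D3:**
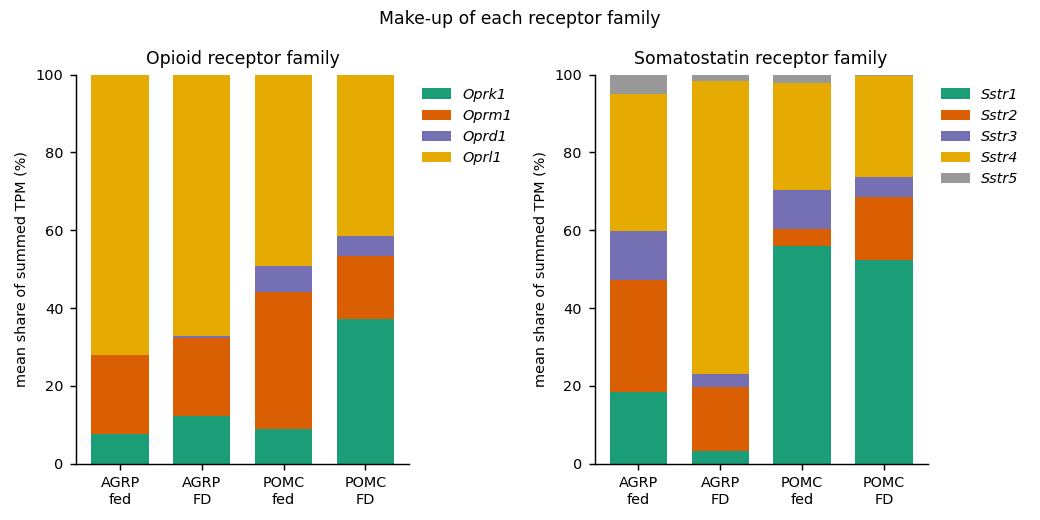
Mean share of each receptor gene in the summed TPM of its family (vertical axis, percent, 0 to 100) in the 4 groups (horizontal axis). Oprl1 fills most of the opioid bars in AGRP neurons (72.1% fed, 67.3% FD), Oprk1 grows from 8.91% to 37.1% in POMC neurons, and Sstr4 fills 75.3% of the somatostatin bar in FD AGRP neurons.

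The precursors of the peptides these receptors bind were measured in the same libraries. Pdyn, the precursor of dynorphins and so of the main Oprk1 ligands, rose in AGRP neurons. It stood at 14.7, 5.81, 23.1, 14.8 and 7.96 TPM in fed AGRP libraries and at 39.5 to 140 TPM (median 93.1) in FD ones. The groups did not overlap, and the change was 3.08 ± 0.33 on the log2 scale (adjusted p = 1.7e-07). POMC libraries held more Pdyn, 176 to 303 TPM when fed and 283 to 470 TPM when FD. Pdyn was 21.8-fold lower in AGRP than in POMC neurons of fed mice (adjusted p = 1.4e-10) and 3.25-fold lower in FD mice (adjusted p = 8.2e-05), without overlap in either. The interaction was 2.74 ± 0.44 (adjusted p = 0.00016), opposite in sign to that of Oprk1.

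Pnoc, the precursor of nociceptin and so of the Oprl1 ligand, fell in AGRP neurons. Fed AGRP libraries held 18.1, 14.0, 12.3, 10.5 and 6.91 TPM and FD ones 0.255 to 5.21 TPM (median 0.417), without overlap (−3.02 ± 0.86, adjusted p = 0.021). In POMC neurons Pnoc was at 0.961 to 11.5 TPM in fed and 2.04 to 9.76 TPM in FD libraries. Penk, the enkephalin precursor, was lower in AGRP than in POMC neurons of fed mice (1.68 ± 2.12 and 19.1 ± 5.10 TPM, −3.67 ± 0.98, adjusted p = 0.016). In FD mice that difference was −1.27 ± 0.84 (adjusted p = 0.33). Mean Penk in FD AGRP neurons was 8.45 ± 7.69 TPM, and the change from fed to FD of 2.57 ± 0.92 missed the threshold (adjusted p = 0.074), while DESeq2 called it. Pomc, the beta-endorphin precursor, was at 16029 ± 4652 TPM in fed and 10743 ± 2129 TPM in FD POMC neurons (−0.73 ± 0.39, edgeR adjusted p = 0.47), and limma-voom called it lower in FD.

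Sst, the somatostatin precursor, was higher in AGRP neurons. It ranged from 593 to 2294 TPM in fed and 440 to 2334 TPM in FD AGRP libraries, and from 1.73 to 213 TPM in fed and 0.587 to 42.7 TPM in FD POMC libraries. AGRP less POMC neurons gave 4.02 ± 0.86 in fed mice (adjusted p = 0.0021) and 6.33 ± 0.97 in FD mice (adjusted p = 1.2e-05). Whether the Sst in these libraries came from the sorted neurons or from other Sst cells carried along was not tested. Cort, the cortistatin precursor, did not pass the filter and was listed at 0 in 12 of 21 libraries.

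**Figure D4:**
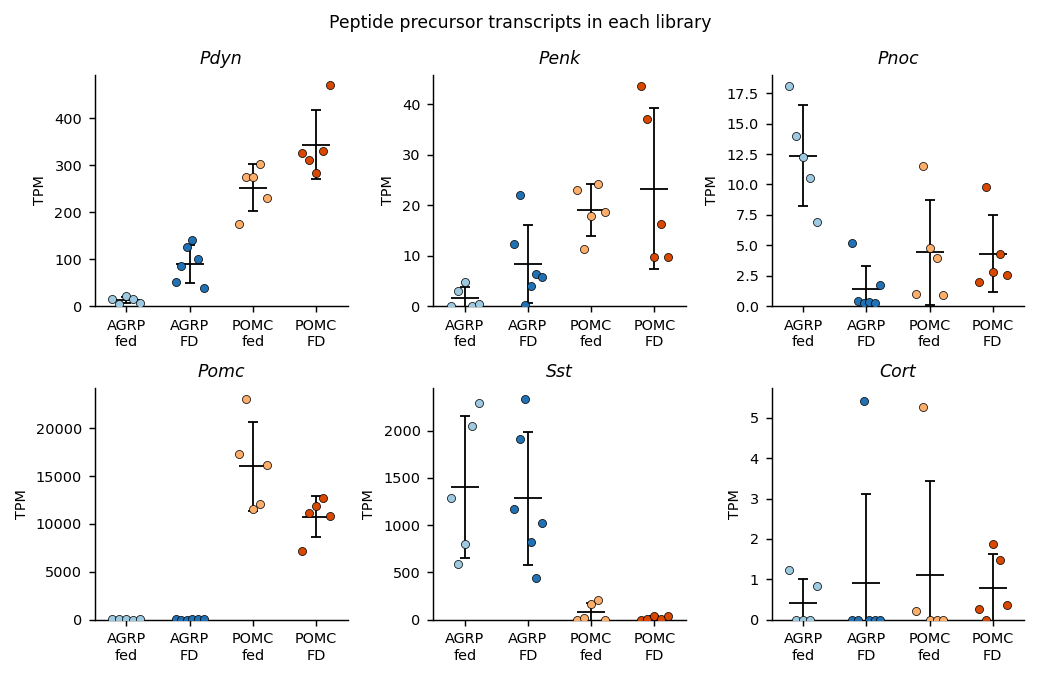
TPM of the 6 ligand precursor genes (vertical axis, linear, from 0, scaled by panel) in the 4 groups. Points are mice, long dashes are means and bars are ± SD, shown down to 0. Pdyn separates fed from FD AGRP libraries (highest fed 23.1, lowest FD 39.5 TPM), and Sst is above 440 TPM in every AGRP library and at most 213 TPM in POMC libraries.

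Of 42 genes that make ligands, carry the signal, end it or are close relatives of these receptors, 37 could be tested. In AGRP neurons with deprivation 3 rose and 2 fell, against 5.87% and 4.43% of all genes. Beside Pdyn and Pnoc, Arrb1, which encodes a beta-arrestin that uncouples occupied receptors, rose from 27.5 to 58.9 TPM on average (1.35 ± 0.20, adjusted p = 3.9e-05). Arrb2, the other beta-arrestin gene listed, went from 64.7 to 34.9 TPM but was not called (−0.67 ± 0.33, adjusted p = 0.22). Ace, whose peptidase can cut enkephalins, rose from 33.8 to 75.1 TPM (1.40 ± 0.24, adjusted p = 0.00015), and Gnai1, an inhibitory G protein alpha subunit, fell by 0.49 ± 0.14 log2 units from 250 to 151 TPM (adjusted p = 0.024). In POMC neurons 1 of 37 was called, against 0.375% of all genes. It was Adcy6, an adenylyl cyclase that Gi inhibits, which rose from 28.6 to 63.8 TPM (1.06 ± 0.20, adjusted p = 0.0066).

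Between the cell types 3 partner genes were higher and 8 lower in fed AGRP neurons, against 3.33% and 4.24% of all genes. In FD AGRP neurons 6 were higher and 7 lower, against 9.28% and 9.27%. The GIRK channel subunits Kcnj3 and Kcnj5, which carry the potassium current these receptors open, went in opposite directions. Kcnj3 was lower in AGRP than in POMC neurons of FD mice (16.7 and 118 TPM, −2.61 ± 0.33, adjusted p = 4.5e-07), and Kcnj5 was higher (87.5 and 10.6 TPM, 3.25 ± 0.38, adjusted p = 1.4e-07). The same directions were called in fed mice (Kcnj3 −1.34 ± 0.33, Kcnj5 1.75 ± 0.36). Gnai1 was also lower in AGRP neurons, by 1.28 ± 0.15 log2 units in fed mice (adjusted p = 3.2e-07) and by 1.75 ± 0.14 in FD mice (adjusted p = 1.5e-10), and so was Gnaz, a further alpha subunit of that class, by 0.68 ± 0.15 (adjusted p = 0.0026) and 0.89 ± 0.14 (adjusted p = 2.1e-05). Arrb1 was lower in AGRP neurons of fed mice (−1.04 ± 0.21), and Adrbk2, a kinase that phosphorylates occupied receptors, was higher (0.93 ± 0.24). Ace, Ece1 and Kcnj9 were higher and Adcy6 lower in AGRP neurons of FD mice, and Ece2 was lower in those of fed mice. Neither presynaptic calcium channel gene, Cacna1a or Cacna1b, was called in any comparison by edgeR, at an adjusted or an unadjusted p of 0.05.

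Among the closest relatives, Mchr1, the receptor of melanin-concentrating hormone, was lower in AGRP than in POMC neurons of FD mice (8.19 and 52.5 TPM, −2.59 ± 0.70, adjusted p = 0.0087). The ranges overlapped through AGRP FD replicate 6 at 36.2 TPM, the other 5 AGRP libraries being at 0.552 to 6.91 TPM. Galr1, a galanin receptor, was called higher in FD AGRP neurons (3.76 and 0.0196 TPM, adjusted p = 0.010), with overlapping ranges and a POMC level near 0. Its mean was 3.68 CPM in FD AGRP neurons and 0.0169 to 0.460 CPM in the other groups. It met the filter mainly through FD AGRP libraries, so its calls are partly built into its inclusion. For the interaction 4 of 37 partner genes were called, against 6.71% of all genes (4.08% higher, 2.63% lower): Pdyn, Arrb1 (1.50 ± 0.29, adjusted p = 0.0012) and Galr1 with the higher change in AGRP neurons, and Adcy6 with the lower (−0.92 ± 0.27, adjusted p = 0.036).

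Genes whose levels ran most like those of a receptor over the 21 libraries were sought among tested genes that reached an average of 20 CPM in some group (8198 candidates at most). Nearest to Oprk1 were Enc1 (Pearson r of log2 CPM 0.79, Spearman rho 0.66), Nomo1 and Zfp462, and mean Enc1 went from 60.1 to 108 TPM in POMC neurons with deprivation and was 45.6 and 44.5 TPM in fed and FD AGRP neurons. Nearest to Oprm1 were Arl4c (r 0.90, rho 0.89), Nlgn1 and Nrcam, the last 2 being adhesion proteins of the neuronal surface. Oprl1 ran most like Ube2h (r 0.80, rho 0.79), Ssbp2 and Sod2, Sstr1 most like Cd83 (r 0.91, rho 0.86), Clstn1 and Tmem35, and Sstr4 most like Eaf1 (r 0.81, rho 0.77), Ivns1abp and Kcnv1. The libraries fall into 4 groups, so these values describe likeness across groups as well as within them, and no test is attached.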

How the data were processed

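The authors trimmed reads with cutadapt 1.7.1, removed abundant sequences with Bowtie2 2.1.0, mapped the rest to mm10 with STAR 2.4.0i and made the deposited counts with HTSeq 0.6.1p1 (versions from the submitters' processing notes), without strand or normalization. They derived the deposited TPM from these counts and summed exon lengths. RNA was amplified without molecular identifiers, so counting error is only part of a library's error. The table held 92 spike-in and 5 summary rows, kept apart from genes; reads on no gene were 25.6 to 55.3% of the reads counted. Depth set a floor of 3 counts at 0.0797 to 0.305 CPM.

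Counts were tested in 1 edgeR 4.0.16 quasi-likelihood model of 4 groups (R 4.3.3; TMM; CPM over 1 in at least 3 libraries; two-sided; Benjamini-Hochberg over 16513 genes), which was checked on simulated data. An adjusted p under 0.05 made a call. Fold changes are followed by standard errors, levels by SD. Alternatives were limma-voom (limma 3.58.1), DESeq2 1.42.0, RLE scaling, no filter, the compared groups alone, blocks for replicate number, age cohort and spike-in set, a cell number covariate, spike-in scaling, the study's criteria (adjusted p under 0.05, log2 change over 1, mean over 20 CPM in a group) and each library left out. Difference of log2 CPM within a set used a prior count of 2. Named were all receptors and ligand precursors, up to 4 called genes of each other list, and the 3 genes most like each receptor over 20 TPM. Gnao1, Arrb2, Cacna1a and Cacna1b were named although not called. The members and lists were chosen with earlier results of these data known. Coding sequences came from GENCODE M21. The corresponding somatostatin receptor sequences are not reported here.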

Additional observations from a re-analysis of the deposited data

Results flagged for a closer look

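The response to deprivation differed between AGRP and POMC neurons for 3 of the 15 receptor and precursor genes, by the interaction term of the edgeR model. Cort was among the 15 but was not tested, and 6.71% of all genes tested were called. It was −2.71 ± 0.65 on the log2 scale for Oprk1 (adjusted p = 0.010), −1.15 ± 0.35 for Oprl1 (adjusted p = 0.042) and 2.74 ± 0.44 for Pdyn (adjusted p = 0.00016), where a negative value is a lower change in AGRP neurons.

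Among 60 sets of values (15 receptor and precursor genes in 4 groups), 9 held a library far from the rest of its group by Dixon's criterion. Chance meets it in about 1 of 20 sets if values are normally distributed. TPM need not be, and some sets were mostly 0 (Cort in 5 of 6 FD AGRP libraries), so the 9 are not read as an excess. Oprk1 was at 23.7 TPM in fed POMC replicate 5 (next library 9.11 TPM), which is still below every FD POMC library. Sstr1 was at 14.0 TPM in fed AGRP replicate 4 (next 5.19) and at 2.98 TPM in FD AGRP replicate 6 (next 1.18). Sstr3 was at 13.4 TPM in fed AGRP replicate 3 (next 3.25), and Oprd1 at 0.224 TPM in fed AGRP replicate 2 (next 0.054), a difference of a few counts. Among precursors, Pdyn was at 470 TPM in FD POMC replicate 5 (next 332), Pnoc at 5.21 TPM in FD AGRP replicate 1 (next 1.74), and Cort at 5.41 TPM in FD AGRP replicate 3 and 5.27 TPM in fed POMC replicate 2 (next 0 and 0.219).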

How the results depend on the processing

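Scaling by spike-in counts per sorted cell changed most. It called 0 receptors in AGRP neurons, 0 in POMC neurons, 1 between fed and 2 between FD cell types and 0 for the interaction. In the same order it called 1, 0, 4, 5 and 0 partner genes. Over all genes it called 97, 13, 297, 1117 and 119, against 1700, 62, 1250, 3064 and 1108 in the main fit. It reversed Oprm1 and Oprl1 between FD cell types (0.16 and 0.58) and the Oprl1 interaction (0.29). The spike-in sets were not balanced over the POMC groups. Fed POMC libraries had 2 with volume by cell number and 3 at 1 µl. FD POMC libraries had 3 at 1 µl and 2 at 10 µl. The cause of the shifts was not tested, nor was the part these sets had in them. DESeq2 called 2 receptors in POMC neurons and 4 receptors and 8 partner genes for the interaction. With limma-voom 1 receptor was called in AGRP neurons and 2 partner genes in POMC neurons. Over all genes DESeq2 called 382 in POMC neurons and 1596 for the interaction, and limma-voom 2115 in AGRP and 73 in POMC neurons. By the study's criteria 0 receptors were called in AGRP neurons, 1 between fed and 2 between FD cell types. With 1 library left out at a time, receptor calls ranged from 0 to 3 in AGRP neurons, 1 to 1 in POMC neurons, 2 to 3 between fed and 5 to 5 between FD cell types, and 1 to 2 for the interaction. AGRP neurons had 0 calls without fed replicate 4 and 1 without fed replicate 2 or 5 or FD replicate 4, 5 or 6. With a group mean of 1 TPM in place of 20 TPM, 9 in place of 5 receptors counted as expressed. The replicate numbers did not pair the mice: of 30 same-numbered pairs 2 correlated over 0.1 (range −0.17 to 0.11), and in 4 pairs a library correlated best with its own number. The replicate block left 1 receptor called in AGRP neurons and 1 for the interaction. Of single-gene values, 381 kept direction and, where tested, side of the threshold, 45 lost and 15 gained it, and 3 reversed. The 381 include ratios of mean levels in TPM and CPM, which were not tested. Sstr5 had 0 to 69 counts per library and Oprd1 0 to 15 in AGRP neurons, which limits the precision of their values.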
